A study of Mus musculus with 8 samples.

Results

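The 40 genes described here encode the machinery of the cell division cycle, and they were chosen by symbol: 15 S phase genes that license, build and feed the replication fork, 3 genes of entry from G1 into S phase (Ccne1, Ccne2 and E2f1), and 22 genes of mitosis. All 40 were among the 24016 genes of the table, and all 40 passed the filter on low values, at least 1 CPM (reads scaled to the same total in every library) in at least 2 libraries. They were measured by RNA sequencing in 8 libraries of mouse spleen CD4+ T cells, in 4 groups of 2 libraries called A and B. Monoclonal cells came from NOD.TCRab.FoxP3GFP.Rag-/- mice, in which T cells carry 1 rearranged receptor and no other can be assembled, and polyclonal cells from NOD.FoxP3GFP mice with a diverse repertoire. NOD is the mouse strain that develops autoimmune diabetes, and both kinds of mice share that background and a reporter in which green fluorescent protein marks Foxp3, the factor that defines regulatory T (Treg) cells. In each kind of mouse, reporter-positive cells are called Treg and reporter-negative cells non-Treg. The series' title speaks of a nuclear transfer model. The labels give no ages and do not say whether A and B of a group are different animals, so the p-values rest on a spread that could be technical. Receptor and Rag genotype differ together between the mice, so their parts cannot be told apart.

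A cell that commits to divide activates cyclin-dependent kinases, which inactivate the retinoblastoma family of repressors and free the E2F factors to switch on replication genes. Mitotic genes follow later. They are held down in resting cells by the DREAM complex at a promoter element called the cell cycle homology region (CHR) and are raised by FoxM1 and B-Myb, with CCAAT boxes nearby that bind NF-Y. Most spleen T cells rest, so transcripts of these genes in a bulk library come largely from the minority that cycles. In bulk samples, fewer cycling cells and less RNA per cycling cell cannot be told apart. Treg cells are known as a population with a high turnover in normal mice.

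The start regions of the members showed this split in their sequence. A window from 250 bases before to 50 bases after the RefSeq start (build GRCm38.p6) was matched for 33 members. None was used for Mcm4, Gins2, Ccne2, Ccna2, Aurkb, Kif20a and Tpx2. Only windows of the full 300 bases were kept. Member windows on chromosome 18 were left out, a filter that was not applied to the other genes. Both strands were searched for E2F letters (TTTCCCGC, TTTCGCGC, TTTGCCGC or TTTGGCGC), the CHR (TTTGAA) and the CCAAT box (CCAAT). The CHR letters stood in 13 of 18 mitotic windows (72.2%) and 2 of 13 S phase windows (15.4%), against 11.9% of the 9633 tested genes with a window. Each of the 13 mitotic windows with a CHR also held a CCAAT box, a pair found in 4.89% of those 9633. The E2F letters went the other way, with 6 of 13 S phase windows (46.2%), 1 of 18 mitotic windows (5.56%, Cdk1) and 4.17% of the 9633. CCAAT boxes were in 16 of 18 mitotic (88.9%), 9 of 13 S phase (69.2%) and 38.7% of all 9633 windows. Ccne1 and E2f1 held none of these letters in the window used. Only 1 window per gene was searched, so other starts of these genes were not covered. Such matches are letters, not measured sites.

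**Figure D1:**
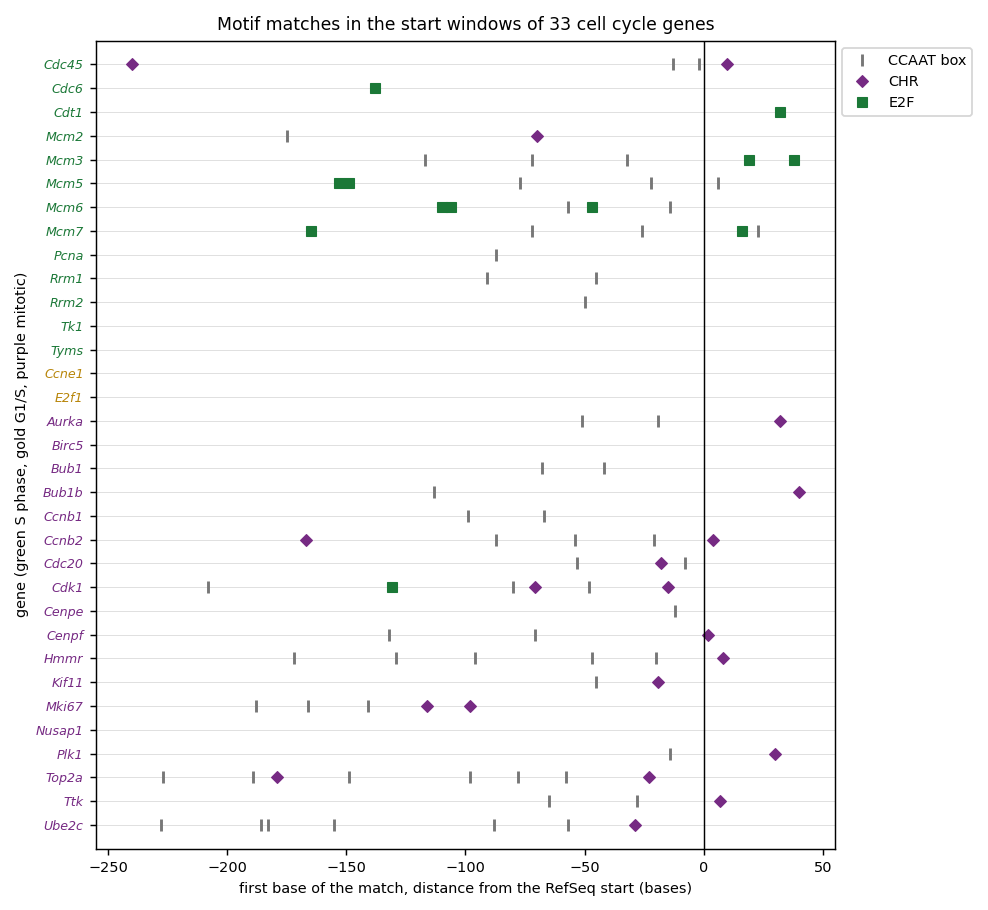
Matches of the E2F, CHR and CCAAT letters around the RefSeq start of 33 members; the x axis is the distance of a match's first base from the start in bases, and each line is 1 gene. Squares (E2F) lie on S phase genes and on Cdk1, and diamonds (CHR) lie mostly on mitotic genes.

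The 250 bases before the start are shown for 5 members whose levels are described next, 2 with E2F letters and 3 with CHR letters. They are written 5′ to 3′ along the gene, with every match of the 3 motifs in capitals. On the reverse strand the CHR reads TTCAAA and the CCAAT box ATTGG. The end of the window lay in an annotated transcript of its gene for 29 of 33 members, but not for Mcm5 or Mcm6. Mcm5 (chr8:75109259-75109508, plus strand) and Mcm6 (chr1:128359706-128359955, minus strand) each hold a pair of E2F matches on opposite strands that overlap, so their capitals run together.
Mcm5: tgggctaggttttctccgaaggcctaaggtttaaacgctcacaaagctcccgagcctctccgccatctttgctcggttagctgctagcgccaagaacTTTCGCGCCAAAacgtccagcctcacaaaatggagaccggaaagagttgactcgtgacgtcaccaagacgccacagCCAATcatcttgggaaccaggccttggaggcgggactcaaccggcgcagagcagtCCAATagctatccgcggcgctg
Mcm6: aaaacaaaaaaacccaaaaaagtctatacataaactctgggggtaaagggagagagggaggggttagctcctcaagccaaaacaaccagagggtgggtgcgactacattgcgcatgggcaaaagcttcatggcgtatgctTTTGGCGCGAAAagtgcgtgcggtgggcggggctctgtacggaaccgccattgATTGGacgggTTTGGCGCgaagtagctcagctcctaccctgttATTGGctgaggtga
Cdk1 (chr10:69352913-69353162, minus strand) carries both kinds, with E2F letters 131 bases before the start and CHR letters 71 and 15 bases before it. Top2a (chr11:99024190-99024439, minus strand) and Mki67 (chr7:135716380-135716629, minus strand) have CHR and CCAAT letters only, and in Mki67 the CHR matches lie 116 and 98 bases before the start.
Cdk1: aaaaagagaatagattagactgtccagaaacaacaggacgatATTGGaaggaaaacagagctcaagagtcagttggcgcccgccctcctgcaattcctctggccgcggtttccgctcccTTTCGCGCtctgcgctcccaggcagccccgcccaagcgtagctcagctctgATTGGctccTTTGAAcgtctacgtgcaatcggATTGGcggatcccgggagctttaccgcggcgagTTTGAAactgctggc
Top2a: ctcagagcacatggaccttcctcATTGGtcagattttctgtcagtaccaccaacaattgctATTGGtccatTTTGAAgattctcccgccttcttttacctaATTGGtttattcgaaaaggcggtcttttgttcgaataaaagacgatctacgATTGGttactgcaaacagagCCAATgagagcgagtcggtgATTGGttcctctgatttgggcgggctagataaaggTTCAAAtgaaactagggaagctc
Mki67: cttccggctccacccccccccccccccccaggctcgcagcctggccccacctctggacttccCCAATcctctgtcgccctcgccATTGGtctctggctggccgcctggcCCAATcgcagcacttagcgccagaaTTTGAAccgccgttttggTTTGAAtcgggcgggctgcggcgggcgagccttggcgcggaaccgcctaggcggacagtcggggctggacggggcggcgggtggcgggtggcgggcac

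Depth ran from 14076330 to 19722321 reads per library, so a count of 0 allows up to 0.152 to 0.213 CPM (3 reads, counting error only). Foxp3 was at 2281 to 2709 CPM in the 4 Treg libraries, 319 and 405 in those of monoclonal non-Treg and 81.9 and 84.2 in those of polyclonal non-Treg cells, and the 5 T cell markers used summed to between 2979 and 4486 CPM in every library. The monoclonal libraries also held transcripts of other cells. The 8 dendritic cell markers summed to 412 and 355 CPM in monoclonal Treg and 1583 and 1831 in monoclonal non-Treg libraries, against 15.9 to 43.0 in the 4 polyclonal libraries, where Batf3 and Clec9a were at 0 in both Treg libraries. The 5 myeloid markers used followed (159 to 475 against 14.3 to 20.7), and the 4 neutrophil markers used ranged from 40.3 to 777 against 14.6 to 48.0. The 6 B cell markers were highest in monoclonal non-Treg libraries (216 and 257 CPM), as were the 9 erythroid markers (346 and 443). The 5 plasma cell markers used were at 298 and 232 CPM in Treg and 166 and 170 in non-Treg libraries of polyclonal mice. In monoclonal mice they were at 233 and 187 CPM in Treg and 161 and 145 in non-Treg libraries. Their ratio of means, Treg over non-Treg, was 1.58 in polyclonal and 1.38 in monoclonal mice, beside 1.61 and 1.09 for the summed members. The part of these cells in the results below was not tested. Fits named there that leave libraries out do not separate these cells from T cells.

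Cell cycle transcripts were most abundant in polyclonal Treg cells. The 40 members together made up 1812 and 1959 CPM there and 1179 and 1166 in polyclonal non-Treg cells. In monoclonal mice they made up 1008 and 1054 CPM in Treg and 978 and 913 in non-Treg cells. Both polyclonal Treg libraries stood well above the other 6. Of the 40 members, 37 had their highest mean in polyclonal Treg cells, and 33 had both polyclonal Treg libraries above all 6 others, which 9.13% of all tested genes showed. The 7 exceptions were Cdt1, Gins2 and Pcna of the S phase genes, all 3 G1/S genes, and the mitotic cyclin Ccnb1. The lowest mean was in monoclonal non-Treg cells for 23 members, in monoclonal Treg for 13 and in polyclonal non-Treg for 4. Mitotic genes spread further than S phase genes. In polyclonal mice the mitotic sum was 876 and 827 CPM in Treg against 448 and 455 in non-Treg cells, a ratio of means of 1.89, and the S phase sum was 909 and 1103 against 710.4 and 690.1, a ratio of 1.44. In monoclonal mice the mitotic sum was 328 and 418 against 305 and 328 CPM (1.18) and the S phase sum 668 and 614 against 644 and 549.8 (1.07). Per kilobase of transcript, the most abundant members in polyclonal Treg cells were Mcm6 (63.7 CPM per kb), Mcm4 (43.6) and Mcm3 (38.5), and the least abundant were Ccnb1 (1.8) and Ccne2 (1.47).

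**Figure D2:**
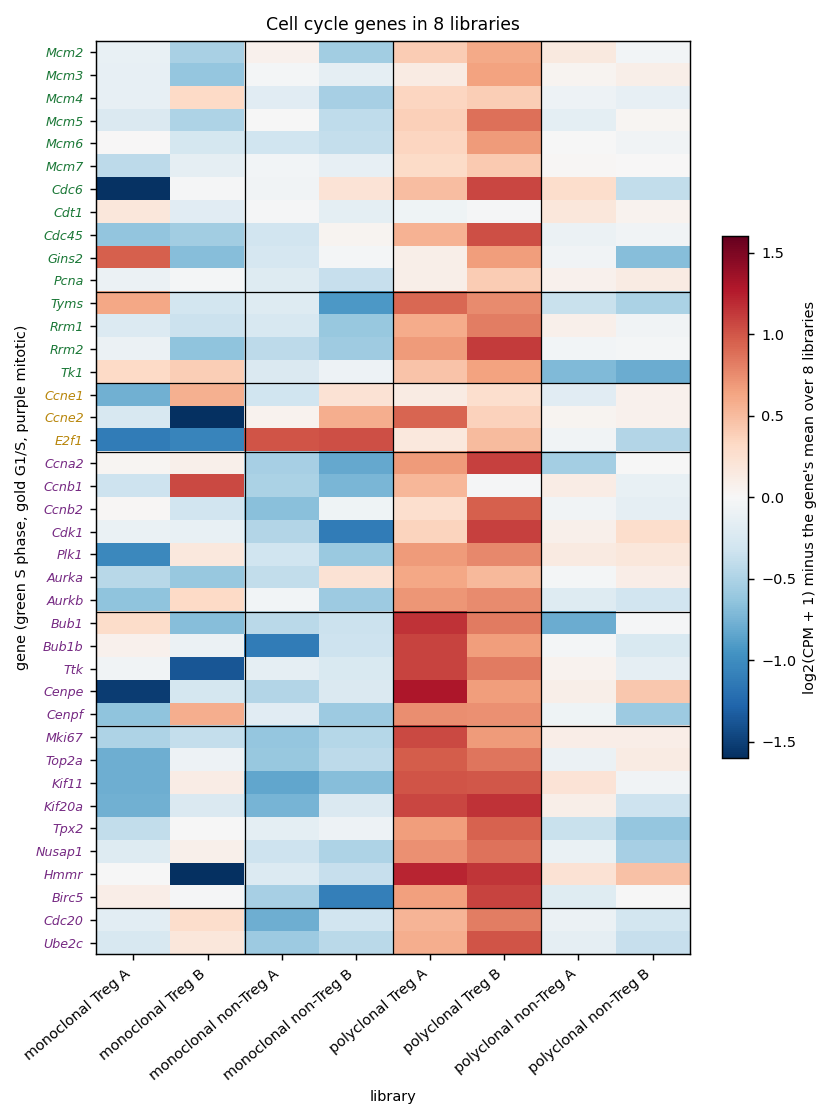
Level of each member in each of the 8 libraries, as log2(CPM + 1) minus that gene's mean over the libraries, with colours that saturate at the ends of the bar. The 2 polyclonal Treg columns are red for nearly every gene, while the monoclonal Treg columns are mostly pale or blue and differ most between A and B.

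The first comparison asked whether Treg cells differ from non-Treg cells in polyclonal mice. Some replication and mitotic genes were higher in Treg cells: 12 of 40 members passed as higher at an adjusted p under 0.05 (limma, Benjamini-Hochberg over 12881 genes) and 0 as lower. Of all tested genes, 4.63% were higher and 3.28% lower. The 12 were 6 of 15 S phase genes (Mcm5, Mcm6, Tyms, Rrm1, Rrm2 and Tk1) and 6 of 22 mitotic genes (Ccna2, Mki67, Top2a, Kif20a, Tpx2 and Nusap1), and none of the 3 G1/S genes. The median log2 fold change was 0.80 over the members, 0.70 over the S phase and 0.94 over the mitotic genes, beside 0.002 over all tested genes. Of the other 28, 27 lay above 0, and 37 members had both Treg libraries above both non-Treg libraries, as did 25.0% of all tested genes. The mean was at least 1.5 times higher in Treg cells for 31 members.

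All 4 members listed for the supply of deoxynucleotides passed the test. Tk1, the thymidine salvage kinase, was at 16.4 and 18.8 CPM in Treg and 6.77 and 6.33 in non-Treg libraries of polyclonal mice. Tyms, which makes thymidylate, was at 24.9 and 22.1 against 9.75 and 8.65 CPM. Both pairs of libraries stood well apart, and the log2 fold changes were 1.30 ± 0.28 (SE, adjusted p = 0.0097 by limma) and 1.26 ± 0.35 (0.0407). Ribonucleotide reductase, which converts ribonucleotides, showed the same order in both subunits. Its large subunit Rrm1 was at 90.0 and 105 against 62.5 and 56.7 CPM (0.70 ± 0.18, adjusted p = 0.024 by limma). Its small subunit Rrm2 was at 38.0 and 51.8 against 22.7 and 22.7 CPM (0.94 ± 0.26, 0.0362).

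The replicative helicase is a ring of Mcm2 to Mcm7, and its 6 subunits were all above 0 by 0.32 to 0.70 on the log2 scale, with 2 past the threshold. Mcm5 was at 89.4 and 127 CPM in Treg and 61.1 and 70.0 in non-Treg libraries of polyclonal mice, and Mcm6 at 161 and 206 against 127 and 122. Neither pair overlapped, and the log2 fold changes were 0.70 ± 0.20 (adjusted p = 0.0467 by limma) and 0.55 ± 0.15 (0.0399). Factors that load or clamp the fork did not pass the test. Cdt1, the helicase loader, gave -0.16 ± 0.18 and Pcna, the sliding clamp, 0.15 ± 0.21, with 95% intervals of -0.55 to 0.23 and -0.30 to 0.61. Cdc6, Cdc45 and Gins2, which load or activate the helicase, were at 0.84 ± 0.48, 0.87 ± 0.34 and 0.75 ± 0.52.

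Of the 6 mitotic genes called, 5 belong to the spindle and to chromosome structure. The medians of the mitotic groups were 0.94 for these genes, 1.02 for checkpoint and kinetochore, 0.96 for exit and 0.56 for cyclins and kinases. Differences between groups were not tested. Mki67, whose protein coats mitotic chromosomes and is the usual marker of cycling cells, was at 297 and 230.0 CPM in Treg and 153 and 154 in non-Treg libraries of polyclonal mice. Top2a, the topoisomerase that untangles sister chromatids, was at 167 and 154 against 79.5 and 92.9 CPM. The Treg libraries of both genes were clearly the higher, by 0.77 ± 0.14 (adjusted p = 0.00346 by limma) and 0.90 ± 0.20 (0.0112) on the log2 scale. Tpx2, a spindle assembly factor, was at 26.6 and 32.3 against 12.5 and 10.3 CPM (1.30 ± 0.27, adjusted p = 0.00668 by limma). Kif20a, a kinesin of cytokinesis, was at 31.5 and 33.5 against 15.6 and 11.4 CPM (1.23 ± 0.31, 0.0227). Nusap1, a microtubule binder of the spindle, was at 21.4 and 23.7 against 11.5 and 8.33 CPM (1.12 ± 0.29, 0.0288). In each of the 3 the groups did not overlap. Ccna2, the cyclin of S phase and early mitosis, was at 32.6 and 43.7 against 13.4 and 19.8 CPM (1.16 ± 0.27, adjusted p = 0.0138 by limma).

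The mitotic kinase Cdk1 and its partner Ccnb1 did not pass. Cdk1 was at 16.5 and 28.1 CPM in Treg and 13.5 and 15.6 in non-Treg libraries of polyclonal mice (0.54 ± 0.33), so that 1 Treg library stood well above the rest. Ccnb1 was low everywhere, at 5.11 and 3.19 against 3.61 and 2.90 CPM. The checkpoint and kinetochore genes Bub1, Bub1b, Ttk, Cenpe and Cenpf lay between 0.72 and 1.39 on the log2 scale and 0 of the 5 passed, with Bub1 the nearest at an adjusted p of 0.0556 by limma. Cdc20 and Ube2c, which work with the ubiquitin ligase that drives mitotic exit, were at 0.87 ± 0.31 and 1.05 ± 0.32.

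None of the 12 calls held under all 17 alternatives run: Tpx2 held in 16, Tk1 in 15, Mki67, Top2a and Ccna2 in 14, Rrm1 in 12, Kif20a in 11, Nusap1 in 9, Rrm2 in 8, Tyms and Mcm6 in 7 and Mcm5 in 6. All 12 stayed above 0 in each of them. Without polyclonal non-Treg A, 1 member was called (Tpx2), without B 2, and without polyclonal Treg B 4, while without either monoclonal Treg library 16 were called and without either monoclonal non-Treg library 7. Fitted on the 4 polyclonal libraries alone, 8 were called. That fit leaves the fold changes as they were and changes only the estimate of the spread. With no filter on low values 5 were called.

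**Figure D3:**
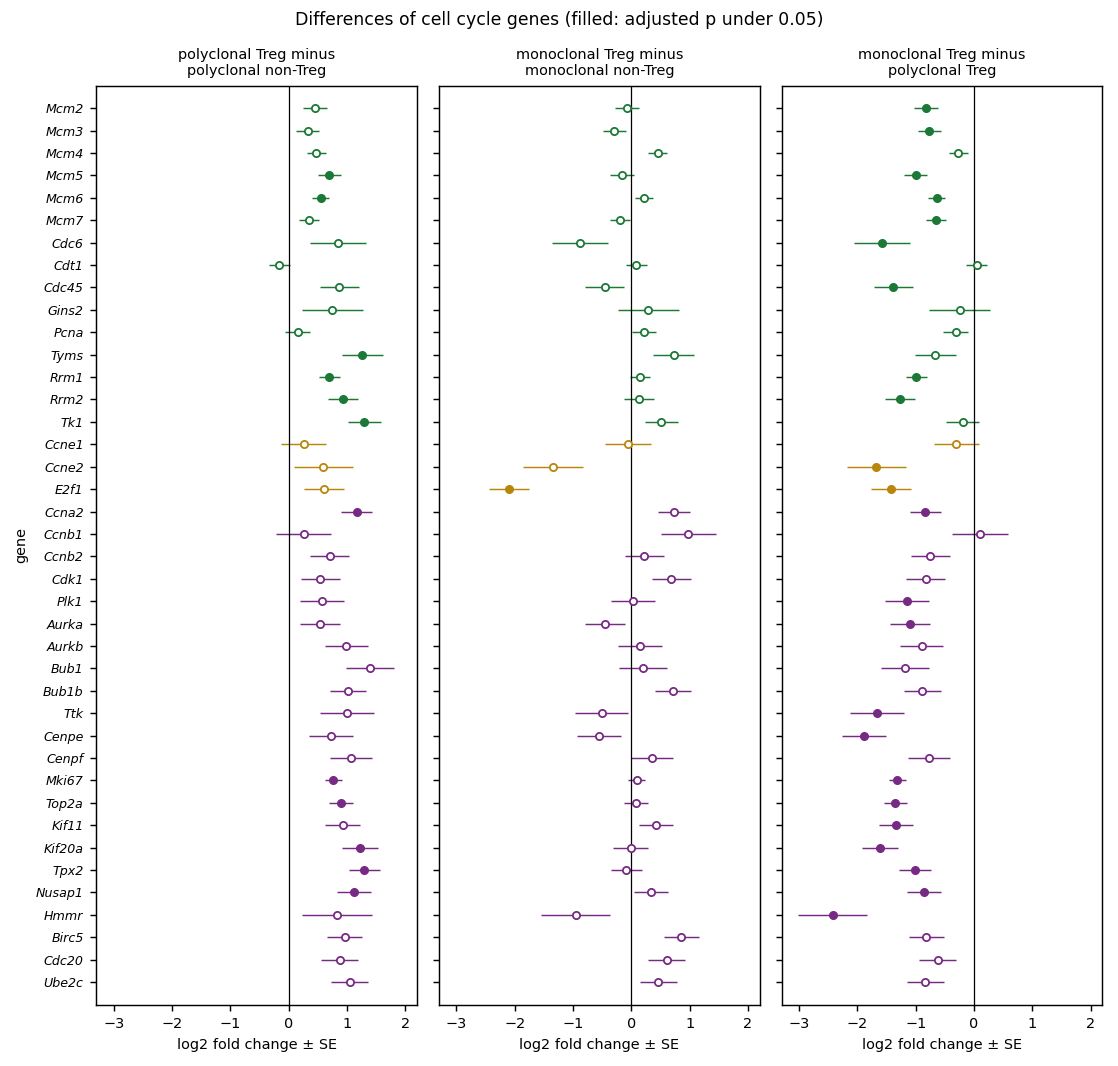
Log2 fold change of each member with its standard error in 3 comparisons, green for S phase, gold for G1/S and purple for mitotic genes; filled points have an adjusted p under 0.05. In the left panel the points lie right of 0 for 39 of 40 members, in the middle panel on both sides, and in the right panel left of 0 for 38.

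In monoclonal mice the same comparison gave another picture. Treg and non-Treg cells had similar levels of most members, 0 of 40 were higher and 1, E2f1, was lower, while 10.8% of all tested genes were higher and 13.6% lower. At an unadjusted p under 0.05, 4 members were higher and 2 lower, and edgeR and DESeq2 on recovered reads also called 0 higher and 1 lower. The members' median log2 fold change was 0.14, beside -0.015 over all tested genes. The libraries of the groups overlapped for 23 of 40 members. Mki67 was at 101 and 109 CPM in monoclonal Treg and 92.8 and 103 in monoclonal non-Treg libraries, a difference of 0.09 ± 0.14 with a 95% interval of -0.22 to 0.40. Top2a was at 48.7 and 80.1 against 55.5 and 63.2 CPM, with an interval of -0.35 to 0.51. The count of called members was 7 without monoclonal Treg A (4 higher, 3 lower) and 4 without monoclonal Treg B or either polyclonal Treg library.

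E2f1, an E2F factor that activates replication genes, was the 1 member called in monoclonal mice, where 15 of 40 members lay below 0, Ccne1 and Ccne2 among them. In monoclonal mice it was at 2.83 and 2.99 CPM in Treg and 15.6 and 15.9 in non-Treg libraries, and in polyclonal mice at 8.31 and 10.8 and at 6.96 and 4.97. The monoclonal non-Treg libraries were thus the highest and the monoclonal Treg libraries the lowest of the 8. It was 4.29-fold lower in Treg cells of monoclonal mice (-2.10 ± 0.34, adjusted p = 0.00046 by limma) and 1.52-fold higher in those of polyclonal mice (0.60 ± 0.34, 0.389). The call in monoclonal mice held under all 17 alternatives run. The summed dendritic cell markers were also highest in the monoclonal non-Treg libraries (1583 and 1831 CPM) but above those of the polyclonal libraries in monoclonal Treg too (412 and 355), where E2f1 was lowest; their part in the E2f1 result was not tested. The cyclins that work with Cdk2 at this step did not pass. Ccne1 was at 6.96 and 19.1 against 9.93 and 15.0 CPM in monoclonal cells, so its Treg libraries fell on either side of the non-Treg ones, and Ccne2 was at 1.91 CPM (29 reads) and 0 against 2.61 and 4.19.

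A test of the difference between the Treg effects of the 2 kinds of mice called 2 members, both with a lower effect in monoclonal mice, beside 3.64% of all tested genes higher and 5.56% lower. E2f1 differed by -2.71 ± 0.48 (adjusted p = 0.00304 by limma) and Tpx2 by -1.38 ± 0.38 (0.0356). The E2f1 difference held in 16 of 16 alternatives and that of Tpx2 in 9 of 16. Tpx2 was at 12.2 and 16.2 CPM in monoclonal Treg and 14.6 and 15.3 in monoclonal non-Treg libraries, all below its 26.6 and 32.3 in polyclonal Treg cells. Mki67 missed with -0.67 ± 0.20 (0.0549) and Top2a with -0.82 ± 0.28 (0.0901). Over the 40 members the median difference was -0.60, and 36 were below 0; 38 did not pass the test. The count was 4 without monoclonal Treg A or polyclonal Treg A, 5 without monoclonal Treg B, and 1 without any 1 of the 4 non-Treg libraries.

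Between the Treg cells of the 2 mice the members differed most. In monoclonal Treg cells 23 of 40 were lower and 0 higher than in polyclonal Treg cells, beside 12.1% lower and 12.1% higher among all tested genes. The 23 were 9 of 15 S phase genes, 2 of 3 G1/S genes and 12 of 22 mitotic genes. The median was -0.87 over the members, -0.67 over the S phase and -0.96 over the mitotic genes, beside -0.025 over all tested genes. Both monoclonal libraries lay below both polyclonal ones for 36 members, against 28.8% of all tested genes. This comparison uses the same polyclonal Treg libraries as the first one, so they are not independent of each other.

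Mki67 stood at 101 and 109 CPM in monoclonal Treg against 297 and 230.0 in polyclonal Treg libraries, 2.49-fold lower (-1.31 ± 0.14, adjusted p = 1.44e-05 by limma). Top2a, at 48.7 and 80.1 against 167 and 154 CPM, was 2.55-fold lower (-1.35 ± 0.20, 0.000212). Neither gene's groups came near each other. Kif20a was at 8.08 and 12.3 against 31.5 and 33.5 CPM (-1.61 ± 0.31, adjusted p = 0.00153 by limma). Kif11, the motor that separates the spindle poles, was at 10.3 and 20.0 against 38.1 and 37.8 CPM (-1.34 ± 0.30, 0.00462). Cenpe, the kinetochore motor, was at 4.20 and 11.2 against 35.6 and 22.8 CPM (-1.89 ± 0.38, 0.00229). For all 3 motors, both monoclonal Treg libraries lay well below both polyclonal ones.

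Further mitotic calls were weaker or rested on fewer reads. Tpx2 differed by -1.01 ± 0.27, Nusap1 by -0.86 ± 0.29 and Ccna2 by -0.84 ± 0.27, with 10.7 and 13.3 against 21.4 and 23.7 CPM for Nusap1 and 20.4 and 21.1 against 32.6 and 43.7 for Ccna2. The kinase Plk1 was at 4.20 and 11.0 against 16.1 and 17.0 CPM and Aurka, the kinase of the spindle poles, at 5.26 and 4.57 against 12.1 and 11.2. Ttk, a spindle checkpoint kinase, was at 3.02 and 0.621 against 7.81 and 6.44 CPM, a call lost by edgeR (adjusted p = 0.104) and DESeq2 (0.0585). Hmmr, a spindle protein, was at 4.60 CPM (70 reads) in monoclonal Treg A and at 0 in B, against 12.1 and 11.4 in polyclonal Treg cells. Its fold rests on libraries that disagree, and edgeR and DESeq2 did not call it (adjusted p = 0.189 and 0.394). The adjusted p of Nusap1 was 0.045 by limma and its call held in 3 of 17 alternatives, and that of Plk1, 0.0393, in 6 of 17.

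**Figure D4:**
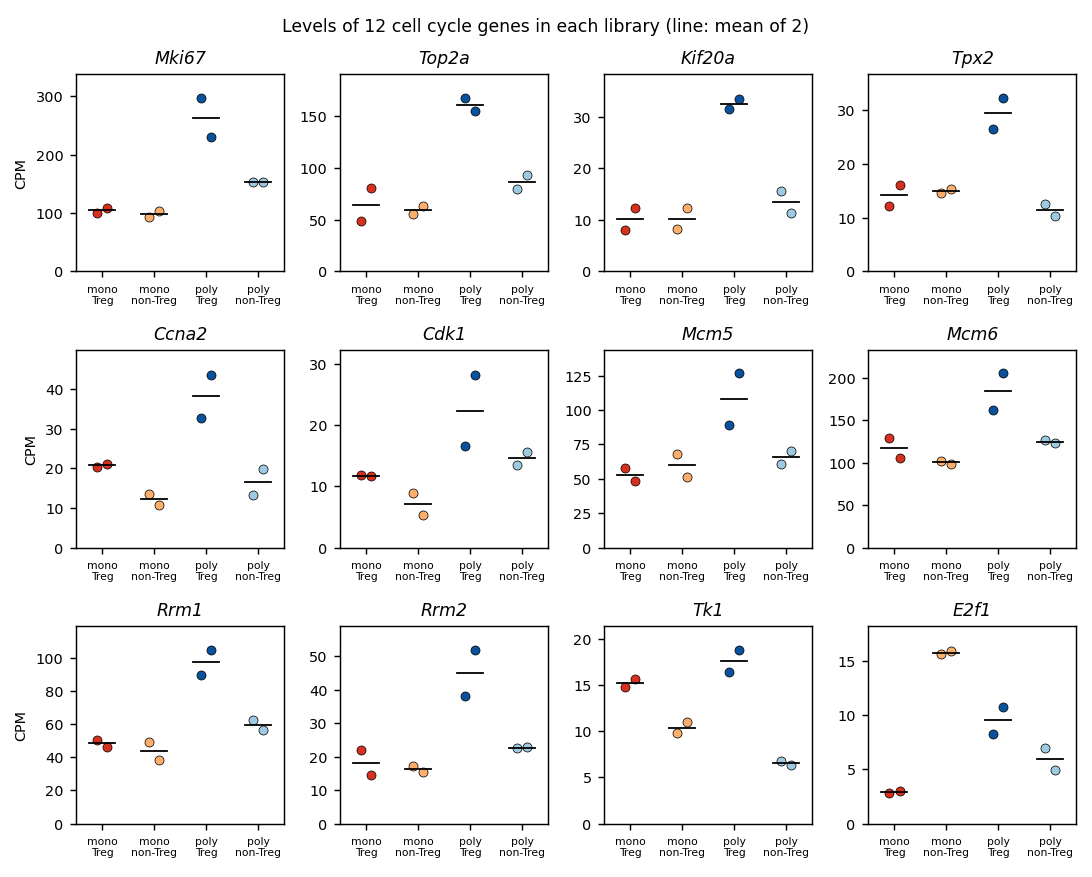
CPM of 12 members in each library, 1 point a library and a line at the mean of 2, each panel starting at 0. Polyclonal Treg points (dark blue) stand above the others in 11 panels, and in the E2f1 panel the monoclonal non-Treg points (light orange) do.

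Replication genes were lower as well. In monoclonal Treg against polyclonal Treg cells Mcm5 was at 57.9 and 48.2 against 89.4 and 127 CPM (-1.0 ± 0.20, adjusted p = 0.0022 by limma). Rrm1 was at 50.7 and 46.3 against 90.0 and 105 CPM (-0.99 ± 0.18, 0.000929). Rrm2 was at 21.9 and 14.5 against 38.0 and 51.8 CPM (-1.27 ± 0.26, 0.00238). The polyclonal libraries were above in every case. The other helicase subunits called were Mcm2 at 55.6 and 41.8 against 80.6 and 92.4 CPM, Mcm3 at 75.5 and 53.3 against 90.7 and 130.2, Mcm6 at 129 and 105 against 161 and 206 and Mcm7 at 37.3 and 45.5 against 62.4 and 67.8, with log2 fold changes from -0.83 to -0.64. Mcm4, at 110.3 and 149.9 against 153 and 158 CPM, did not pass. Cdc45, which completes the active helicase, was at 4.80 and 5.08 against 12.1 and 17.3 CPM (-1.39 ± 0.34, 0.00799), and Cdc6 at 1.51 and 6.44 against 9.59 and 14.8 (-1.58 ± 0.48, 0.0267). The Cdc6 call was lost by edgeR (adjusted p = 0.0867) and DESeq2 (0.0665), and without monoclonal Treg A its log2 fold change was -0.80 (0.196 by limma).

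Not every S phase gene was lower. The thymidylate enzymes of monoclonal Treg cells lay nearer to those of polyclonal Treg cells, with Tk1 at 14.8 and 15.6 against 16.4 and 18.8 CPM (-0.20 ± 0.28, 95% interval -0.80 to 0.41) and Tyms at 20.2 and 10.2 against 24.9 and 22.1 (-0.67 ± 0.35). Cdt1 was at 56.1 and 43.1 against 46.8 and 48.7 CPM and Pcna at 26.3 and 27.5 against 30.1 and 37.8, and neither passed. Among the S phase genes only Tk1 had both monoclonal non-Treg libraries (9.76 and 11.0 CPM) above both polyclonal non-Treg ones (6.77 and 6.33). Its log2 fold change there was 0.59 ± 0.28 (adjusted p = 0.18 by limma), and 3 of the 15 S phase genes lay above 0. Ccnb1 was at 2.37 and 7.79 against 5.11 and 3.19 CPM, and Cdk1 at 11.8 and 11.6 against 16.5 and 28.1 (-0.83 ± 0.33, 0.085). The G1/S gene E2f1 was 2.68-fold lower (-1.42 ± 0.34, 0.00719), and Ccne2 was at 1.91 and 0 against 5.61 and 3.50 CPM, a call lost by edgeR (adjusted p = 0.239) and DESeq2 (0.166).

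The calls that held under all 17 alternatives were Mki67, Top2a, Kif11, Kif20a, Cenpe, Mcm5, Rrm1 and Rrm2, 8 of the 23. Fitted on the 4 Treg libraries alone 12 were called, edgeR on recovered reads called 16, and leaving out 1 library at a time gave 16 to 21. Over the members, replicates of monoclonal Treg cells differed more than those of the other groups. The median absolute difference was 0.44 on the log2 scale, against 0.25 in monoclonal non-Treg, 0.30 in polyclonal Treg and 0.19 in polyclonal non-Treg cells. Over all tested genes it was 0.273 in monoclonal Treg, 0.189 in monoclonal non-Treg, 0.295 in polyclonal Treg and 0.150 in polyclonal non-Treg cells. Neutrophil markers were higher in A than in B in every group, at 777 and 150.0 CPM in Treg and 289 and 40.3 in non-Treg cells of monoclonal mice, and at 48.0 and 16.2 and at 36.6 and 14.6 in those of polyclonal mice. Their part in the spread of the members was not tested.

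Among non-Treg cells few members differed between the mice: 1 was higher and 1 lower in monoclonal cells, beside 12.1% higher and 7.35% lower among all tested genes. E2f1 was 2.43-fold higher (1.28 ± 0.34, adjusted p = 0.0145 by limma). Mki67, at 92.8 and 103 against 153 and 154 CPM, was 1.56-fold lower (-0.64 ± 0.14, 0.00518). Both calls were lost when single libraries were left out: E2f1 without either monoclonal or either polyclonal non-Treg library (adjusted p from 0.0527 to 0.183 by limma), and Mki67 without monoclonal non-Treg A or either polyclonal non-Treg library (0.0549 to 0.0739). Scaled to the CD3 genes Mki67 gave -0.11 (0.791). No member was called without monoclonal non-Treg A or either polyclonal non-Treg library, 1 without monoclonal non-Treg B, and 4 without either monoclonal Treg library. Cdk1 was the nearest of the others, at 8.93 and 5.29 against 13.5 and 15.6 CPM (-0.97 ± 0.33, 0.0543). The members' median was -0.25, beside -0.067 over all tested genes.

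None of the remaining called members passed the test between the non-Treg cells of the mice. For the helicase, Mcm2 was at 63.3 and 40.9 CPM in monoclonal and 67.2 and 58.8 in polyclonal non-Treg libraries, Mcm3 at 81.0 and 74.8 against 85.4 and 88.0, and Mcm7 at 48.9 and 45.9 against 50.9 and 50.4. Mcm5 was at 68.1 and 51.4 CPM and Mcm6 at 102 and 98.0 in monoclonal non-Treg cells. Mcm2 and Mcm5 overlapped between the mice. Cdc45 was at 6.21 and 8.26 against 7.40 and 7.62 CPM, Cdc6 at 6.21 and 7.74 against 8.10 and 4.71, and Pcna at 24.4 and 21.7 against 29.5 and 31.0. Of the nucleotide enzymes, Tyms was at 10.9 and 6.26 CPM, Rrm1 at 49.4 and 38.4 and Rrm2 at 17.1 and 15.4 in monoclonal non-Treg cells. The G1/S cyclin Ccne2 was at 2.59 and 2.65 CPM in polyclonal non-Treg cells, and Ccne1 at 13.9 and 15.4 in Treg and 11.0 and 13.2 in non-Treg cells of polyclonal mice.

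Several mitotic genes had their lower libraries in monoclonal non-Treg cells. The motor Kif11 was at 9.93 and 11.2 CPM in monoclonal and 21.6 and 17.6 in polyclonal non-Treg libraries, and Cenpe at 9.81 and 11.7 against 14.9 and 19.2. Both polyclonal libraries were the higher for each, without a call. The kinases Plk1 and Aurka were at 7.54 and 6.06 against 10.7 and 11.0 CPM and at 5.49 and 8.96 against 7.34 and 8.13. Ttk was at 2.77 and 2.52 against 3.35 and 2.78 CPM, and Hmmr at 3.83 and 3.35 against 5.57 and 6.78. In monoclonal non-Treg cells Kif20a was at 8.26 and 12.3 CPM, Nusap1 at 9.76 and 8.64, Ccna2 at 13.5 and 10.8 and Ccnb1 at 2.0 and 1.55.

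The 11 members not given in full, Mcm4, Cdt1, Gins2, Ccnb2, Aurkb, Bub1, Bub1b, Cenpf, Birc5, Cdc20 and Ube2c, passed in no comparison. In polyclonal Treg against non-Treg cells they ran from -0.16 for Cdt1 to 1.39 for Bub1, and in monoclonal against polyclonal Treg cells from -1.19 for Bub1 to 0.04 for Cdt1. Birc5, the survivin subunit of the chromosomal passenger complex, was the nearest to a rise in monoclonal Treg cells, at 14.1 and 12.9 against 8.71 and 5.61 CPM (0.86 ± 0.30, adjusted p = 0.0524 by limma). Gins2 was low and uneven, at 6.50 and 1.41 CPM in monoclonal Treg libraries.

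Some inhibitors of the cycle were higher in monoclonal Treg cells. Of 12 tested inhibitors and antiproliferative genes (13 listed), 4 were higher and 1, Btg2, lower than in monoclonal non-Treg cells, beside 10.8% and 13.6% of all tested genes. Against polyclonal Treg cells 6 were higher and 0 lower, beside 12.1% and 12.1%, and 6 did not pass. The median log2 fold changes were 0.77 and 0.74. In polyclonal Treg against non-Treg cells 0 were higher and 1, Klf2, was lower, beside 4.63% and 3.28%. The kinase inhibitor Cdkn1b (p27) was at 431 and 449.6 CPM in Treg and 183 and 143 in non-Treg libraries of monoclonal mice, and at 202 and 219 against 223 and 240.2 in polyclonal mice. It was the monoclonal Treg libraries that stood apart, by 1.44 ± 0.13 over their non-Treg cells (adjusted p = 4.8e-06 by limma) and 1.06 ± 0.13 over polyclonal Treg cells (5e-05). Cdkn1c (p57) was at 31.5 and 34.3 CPM there, 5.55 and 2.58 in monoclonal non-Treg and 0.581 to 2.13 in the polyclonal libraries. Cdkn1a (p21) was at 25.4 and 37.2, 9.20 and 7.87, and 1.78 to 5.53 CPM in the same order. Klf2, a factor of resting T cells, was at 631 and 579.6 CPM in monoclonal Treg and 254 and 354 in polyclonal Treg libraries. These lists were chosen with earlier results of these data known.

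**Figure D5:**
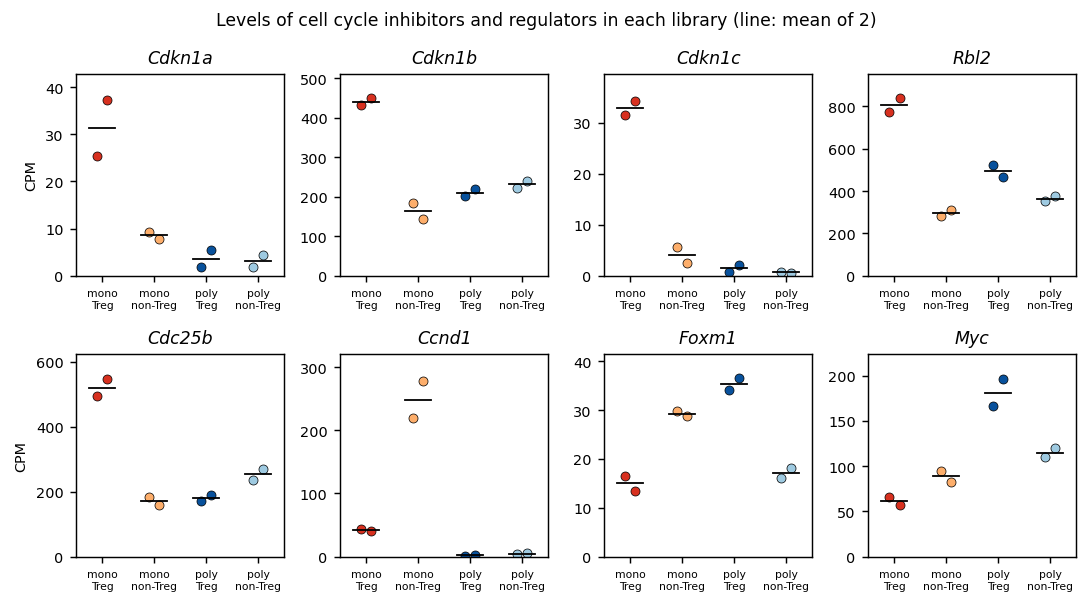
CPM of 8 inhibitors and regulators of the cell cycle in each library, 1 point a library and a line at the mean of 2, each panel starting at 0. Monoclonal Treg points (red) stand highest for Cdkn1a, Cdkn1b, Cdkn1c, Rbl2 and Cdc25b and have the lowest mean for Foxm1 and Myc, and Ccnd1 is highest in monoclonal non-Treg cells.

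Of 20 tested regulators of E2F and DREAM (21 listed), 1 was higher and 7 lower in monoclonal than in polyclonal Treg cells, beside 12.1% and 12.1% of all tested genes. In polyclonal Treg against non-Treg cells 5 were higher and 0 lower, beside 4.63% and 3.28%, and Rbl2 (0.44 ± 0.12), Foxm1 and Myc were among the 5. Rbl2 (p130), the pocket protein of DREAM in resting cells, was the 1 higher in monoclonal than in polyclonal Treg cells, at 774 and 841 CPM in monoclonal Treg against 522 and 468 in polyclonal Treg libraries (0.71 ± 0.12, adjusted p = 0.00051 by limma). Foxm1, which raises mitotic genes, was at 16.6 and 13.5 against 34.2 and 36.5 CPM (-1.19 ± 0.23, 0.0016). Myc was at 65.7 and 56.6 against 166 and 196 CPM (-1.55 ± 0.15, 3.8e-06), and E2f3 at 12.2 and 12.1 against 31.9 and 29.9 (-1.28 ± 0.24, 0.0015). The Treg effect on Foxm1 differed between the mice, -0.92 ± 0.23 in monoclonal and 1.0 ± 0.23 in polyclonal cells (difference -1.92 ± 0.32, 0.0022).

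The cyclins and kinases of G1 showed no common direction. Of 14 tested (15 listed), 3 were higher and 4 lower in monoclonal than in polyclonal Treg cells, beside 12.1% and 12.1% of all tested genes. The phosphatase Cdc25b was at 493 and 547 against 170.4 and 188 CPM, and the G1 kinase Cdk4 was lower (-0.65 ± 0.17, adjusted p = 0.012 by limma). Ccnd1 was at 219.5 and 278 CPM in monoclonal non-Treg and 44.2 and 41.1 in monoclonal Treg libraries against 1.63 to 4.84 in polyclonal ones. Its order over the groups is that of the summed dendritic cell markers, and their part in its level was not tested.

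Replication and mitotic genes outside the 40 members were also counted; of all tested genes, 4.63% were higher and 3.28% lower in polyclonal Treg than non-Treg cells, and 12.1% each way in monoclonal against polyclonal Treg cells. Of 43 other replication genes, 4 were higher and 0 lower in the first of these and 0 higher and 12 lower in the second. Uhrf1, which carries DNA methylation through replication, was at 14.1 and 17.4 CPM in monoclonal Treg and 45.3 and 54.3 in polyclonal Treg libraries (-1.60 ± 0.23, adjusted p = 0.00014 by limma). Of 50 other mitotic genes, 5 were higher and 0 lower in polyclonal Treg than non-Treg cells, and 22 were lower and 1 higher in monoclonal than in polyclonal Treg cells. The condensin subunit Ncapd2 was at 37.9 and 40.3 against 83.5 and 81.4 CPM (-1.06 ± 0.16, 0.00021) and the kinesin Kif15 at 7.62 and 6.61 against 25.1 and 28.2 (-1.77 ± 0.29, 0.00052). Monoclonal Treg against non-Treg cells gave 0 higher and 4 lower of the 43 and 4 higher and 4 lower of the 50, shares below those of all tested genes (10.8% higher and 13.6% lower).

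The scale moved the medians most in comparisons with the monoclonal non-Treg libraries. These also had the highest sums of dendritic cell, B cell and erythroid markers, and the cause of the shift was not tested. Scaled to the CD3 genes (Cd3d, Cd3e and Cd3g), the median of all tested genes moved to -0.65 for Treg against non-Treg cells in monoclonal mice, -0.13 for monoclonal against polyclonal Treg cells and 0.43 for monoclonal against polyclonal non-Treg cells. Members were then at -0.52, -0.98 and 0.24, so that the first and the third of these medians changed sign with the scale, and 10 members were lower in monoclonal Treg than non-Treg cells and 3 higher in monoclonal than polyclonal non-Treg cells. The share of higher genes among all called went from 44.4% to 6.16% and from 62.2% to 95.7% in these 2 comparisons, and from 39.6% to 4.13% for the difference of the Treg effects. With TMM factors it was 71.8% for monoclonal against polyclonal non-Treg cells. In polyclonal Treg against non-Treg and in monoclonal against polyclonal Treg cells the members' calls kept 1 direction on each scale. After scaling to CD3, 3 were higher in the former, where the main fit called 12. In the latter 21 were lower, where the main fit called 23.

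Of the 40 members, 7 overlap a gene on the opposite strand in the table (Gins2, Tk1, Ccne2, Ccna2, Kif20a, Nusap1 and Cdc20). The labels say that strand was kept, but the sources used here do not say whether counting used it, so reads of these genes and their partners may not be told apart.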

How the data were processed

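RNA was extracted from CD4+ spleen T cells, selected with poly-dT, and sequenced as single-end reads with strand kept, per the labels' protocols. Per the submitters' processing notes, which give no roles, STAR 2.4.1a, HOMER 4.7, Trimmomatic 0.33, CASAVA 1.8.2, FastQC 0.10.1 and edgeR (no version) were used with the build mm9. The authors deposited 1 table of CPM for 24016 genes. In each library 100% of the deposited values were whole multiples of 1 read within 0.01 read, so reads could be recovered. The sources used here do not give the counting of multiply mapped reads.

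The main test was limma 3.58.1 (R 4.3.3) on log2(CPM + 1) with trend and robust spread, over 12881 genes with at least 1 CPM in 2 libraries. It fitted 4 group means over 8 libraries (4 residual degrees of freedom), 2-sided, with Benjamini-Hochberg adjustment over all genes and a threshold of 0.05. Fold changes are on that scale, which understates changes of low genes. Recovered reads were also tested with edgeR 4.0.16 and DESeq2 1.42.0. Further alternatives were TMM factors, scaling to the CD3 genes, a pseudocount of 0.25, no filter, at least 2 CPM, a fit of only the groups compared, the replicate letter as a block, and leaving out each library. The code was tested on simulated data. Promoter windows came from RefSeq (GRCm38.p6); gene positions of the 2 builds were not mixed. Named genes followed a rule: values in every library for members past the threshold in any comparison and for Mki67, Top2a, Ccna2, Ccnb1, Cdk1, Mcm2, Mcm5, Pcna, Tyms, Rrm2, Ccne1 and E2f1, other members mainly by range, and of each further list at most 4 genes per comparison, those with the smallest adjusted p. Members and lists were chosen with earlier results of these data known.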

Additional observations from a re-analysis of the deposited data

Results flagged for a closer look

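In each of the following genes the Treg effect (log2 Treg over non-Treg) differed between monoclonal and polyclonal mice by the test of that difference (limma, adjusted p under 0.05), given as monoclonal minus polyclonal. Among the members these were E2f1 at -2.71 and Tpx2 at -1.38.

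Among the other cell cycle genes, the inhibitors and resting-state genes had a higher effect in monoclonal mice, with Cdkn1c at 2.33, Cdkn1b at 1.58, Klf2 at 1.24 and Rbl2 at 1.0, and so had Cdc25b at 2.08 and Ccnc at 1.12. Activators and replication genes had a lower one, with Ccnd1 at -1.57, E2f3 at -1.58, Myc at -1.18, Foxm1 at -1.92, Dna2 at -2.62, Uhrf1 at -1.50, Pole at -1.32, Timeless at -0.95 and Rfc1 at -0.70. The mitotic genes were Espl1 at -2.57, Sgol1 at -2.20, Kif18a at -2.15 and Melk at -2.00. Scaled to the CD3 genes, the calls of Cdkn1c, Cdkn1b, Klf2, Rbl2 and Ccnc were lost (adjusted p = 0.0537, 0.0612, 0.187, 0.484 and 0.349 by limma). The Cdkn1c and Sgol1 calls each held in 6 of 16 alternatives. Of 111 called results of named genes outside the members, over all comparisons, 37 held in every alternative. Dna2, Espl1 and Ccnd1 were highest in the monoclonal non-Treg libraries (95.3 and 123, 29.2 and 35.9, 219.5 and 278 CPM), which also held the most dendritic cell transcripts, and the part of those was not tested.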

How the results depend on the processing

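The counts of members called rest on 2 libraries a group. For Treg against non-Treg cells the count was 1 in monoclonal mice (1 to 7 with 1 library left out, 10 scaled to the CD3 genes) and 12 in polyclonal mice (1 to 16 with 1 library left out, 3 scaled to CD3, 5 with no filter). For the difference of these effects it was 2 (1 to 5 with 1 library left out, 15 scaled to CD3, 1 with no filter, 4 by DESeq2). For monoclonal against polyclonal Treg cells it was 23 (16 to 21 with 1 library left out, 12 in a fit of only these groups), and for non-Treg cells 2 (0 to 4 with 1 library left out, 7 in a fit of only these groups). Where a fit leaves 1 library in a group, that library is assumed to vary like the others. The cause of these changes was not tested. With the letter as a replicate block the counts were 1, 9, 2, 22 and 2 in the same order. Over all tested genes, deviations of same-letter libraries from their group means had correlations of -0.093 to 0.097 between groups. Neutrophil markers were nonetheless higher in A than in B in all 4 groups. With 2 libraries a group, these values cannot decide whether the letters pair libraries. The labels do not say either, so the block was run only as an alternative.

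Scaled to the CD3 genes, 7 called values changed sign: Ccnd2 (-0.338), E2f2 (-0.0295) and Smc4 (-0.169) in monoclonal Treg against non-Treg cells, and Ccnd2 (0.0947), Cdkn1b (0.0204), E2f4 (0.0849) and Rpa1 (0.0398) in monoclonal against polyclonal non-Treg cells. The cause was not tested. No value of a called member changed sign under any alternative run.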
